A study of Mus musculus with 265 samples.

Results

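The cells described here were 132 single pre-B cells collected 24 hours after Ikaros was induced. They were chosen by time-point alone, as every single-cell column that the count table labels as 24 hours, and they made up 132 of its 227 single cells. All cells were of the mouse B3 line, a pre-B line that carries Ikaros fused to ERt2, a mutated estrogen receptor domain that keeps the protein out of the nucleus until tamoxifen is given. The 24-hour cells had been cultured in Iscove's medium with 10% serum and induced with 4-hydroxytamoxifen, which the labels give at 20 mM with a further dose at about 12 hours. The other 95 cells were of the same inducible line at the 0-hour time-point, 48 in run 1 and 47 in run 2. Every value thus came from 1 engineered cell line, and none from primary pre-B cells. Single cells had been captured on the Fluidigm C1, a microfluidic device with 1 cell per capture site, in 2 runs per time-point. The 24-hour cells numbered 60 in run 1 and 72 in run 2. The labels do not say whether the runs came from separate cultures, so the spread between them may be technical. GEO's labels list 148 single cells at 24 hours, 75 in run 1 and 73 in run 2, and the table holds 132 of them.

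Ikaros is a zinc finger transcription factor that binds DNA at GGGAA and recruits the NuRD chromatin remodelling complex, and it is required for B cell development. Pre-B cells express a surrogate-light-chain receptor, divide, and then stop dividing and rearrange their light chain genes, a step that Ikaros promotes. ATAC-seq uses the Tn5 transposase to insert adapters into open chromatin, so a read marks a place where DNA was accessible. Each cell has only a pair of copies of most loci, so a single cell yields signal in a small fraction of the regions that are open in its population, and the share of cells with signal is the usable measure.

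The sequences below are shown because the widely detected promoters of these cells shared a short sequence feature, the CCAAT box, the binding element of the NF-Y complex. They were read from the mm10 genome on the gene's strand, without annotated untranslated sequence, and capitals mark each CCAAT or its reverse complement ATTGG. Gsk3b (chr16:38088794-38089000), Pja2 (chr17:64332041-64332253), Gatad2b (chr3:90293012-90293177) and Usp22 (chr11:61175181-61175331) were among the most widely detected promoter regions. Pax5 (chr4:44704498-44704649) and Ebf1 (chr11:44617141-44617286) encode B lineage factors, and the Igf2bp3 stretch (chr6:49217985-49218229) lay outside promoters.
Gsk3b: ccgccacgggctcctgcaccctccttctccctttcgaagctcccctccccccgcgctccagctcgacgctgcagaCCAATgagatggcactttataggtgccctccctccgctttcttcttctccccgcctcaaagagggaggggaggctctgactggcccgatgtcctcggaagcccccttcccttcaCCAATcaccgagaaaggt
Pja2: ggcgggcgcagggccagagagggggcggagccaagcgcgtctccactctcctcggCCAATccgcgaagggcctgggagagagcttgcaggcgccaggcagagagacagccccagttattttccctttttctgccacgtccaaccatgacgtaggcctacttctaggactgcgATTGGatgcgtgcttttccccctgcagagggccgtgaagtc
Gatad2b: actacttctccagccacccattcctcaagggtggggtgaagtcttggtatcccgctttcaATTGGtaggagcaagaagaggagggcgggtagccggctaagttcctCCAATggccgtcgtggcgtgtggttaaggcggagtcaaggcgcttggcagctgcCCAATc
Usp22: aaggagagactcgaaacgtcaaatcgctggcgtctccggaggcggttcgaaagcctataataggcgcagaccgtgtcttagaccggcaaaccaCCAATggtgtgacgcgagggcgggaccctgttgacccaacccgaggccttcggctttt
Pax5: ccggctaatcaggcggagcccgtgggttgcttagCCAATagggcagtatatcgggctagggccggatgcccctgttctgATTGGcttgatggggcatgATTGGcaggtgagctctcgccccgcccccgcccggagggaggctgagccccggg
Ebf1: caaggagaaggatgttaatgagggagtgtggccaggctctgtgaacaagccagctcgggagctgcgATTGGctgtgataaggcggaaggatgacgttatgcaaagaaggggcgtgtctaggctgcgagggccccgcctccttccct
Igf2bp3: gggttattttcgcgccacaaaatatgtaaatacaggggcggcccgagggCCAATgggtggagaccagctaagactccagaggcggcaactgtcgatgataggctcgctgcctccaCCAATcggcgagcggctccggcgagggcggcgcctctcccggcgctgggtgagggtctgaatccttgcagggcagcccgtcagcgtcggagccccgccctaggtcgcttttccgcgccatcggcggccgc

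Depth was low, as is usual for single cells. The table gives a count of 0, 1 or 2 for each of 20103 chromatin regions in each cell. The 24-hour cells held 334 to 7940 counts each, with medians of 1839.5 in run 1 and 1676 in run 2, and signal in a median of 1199 and 1077.5 regions. Of their values, 93.5% were 0, and 53.7% of the others were 2. A region without signal in any of 132 cells could still be detectable in up to 2.27% of such cells, a limit that covers counting error only, as do all intervals below. No 2 columns held identical values, and 42 capture-site names (positions on the chip) occurred in both 24-hour runs. The 2 runs stood apart in composition. Regions within 1 kb of a gene start took 58.3% of the counts of run 1 and 66.4% of run 2, so patterns are given for each run and only those seen in both are kept.

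The accessible landscape at 24 hours was broad and thin. Of the 20103 regions, 15935 had signal in at least 1 cell of both 24-hour runs, 3685 in 1 run only and 483 in neither, and the median region had signal in 4.55% of the 132 cells. Regions detected in at least 10% of cells of both runs numbered 2646, or 13.2%. At a threshold of 25% of both runs 149 remained, and at 50% only 14. The 25% count was 16 when each cell was thinned to 721 counts, which left out 9 and 5 shallower cells. It was 28 when only a value of 2 counted as detected, and 316 and 652 in runs 1 and 2 taken alone. Across all regions the shares of the runs correlated with Pearson's r = 0.656 and Spearman's rho = 0.547, a description over regions that share cells and width. Wider regions had larger shares (Spearman's rho = 0.422), and so did regions of higher GC content (0.415).

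**Figure D1:**
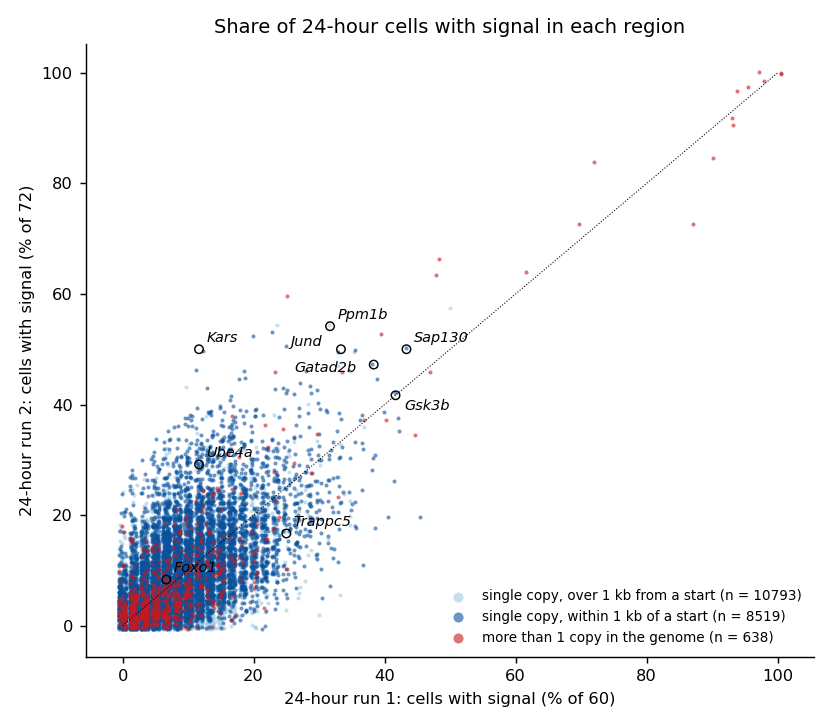
Each point is 1 of the chromatin regions, placed by the percentage of the 60 cells of 24-hour run 1 (x axis) and of the 72 cells of run 2 (y axis) with signal, with a small random shift so that points do not cover each other; the 153 regions too short for the copy search are not drawn. Circles mark named genes at their exact values, and the dotted line is equality. The points near 100% in both runs are red, the regions with more than 1 copy in the genome, whereas the single-copy region with the largest smaller-of-the-runs share lies at 50% and 56.9%.

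The regions open in nearly every cell were repeats. All 9 regions detected in at least 75% of cells of both runs matched more than 1 place in the mm10 genome, at 90% identity over 80% of their length, so their signal cannot be assigned to a single locus. Of the 9, 5 lay at Gm21738, a predicted gene on chromosome 14. Its 2 most widely detected regions had signal in 60 of 60 and 72 of 72 cells and matched 358 and 362 places. In all, 638 of the 20103 regions had more than 1 copy, and 26 of the 149 regions at the 25% threshold were among them. The rankings of promoter and distal regions below use single-copy regions, of which 123 passed that threshold and 1 passed 50%. Counts of regions per gene and the gene lists include regions with more than 1 copy.

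Promoters dominated the well-detected regions. Regions within 1 kb of a protein-coding gene start made up 43.7% of the table but 81.7% of those seen in at least 10% of cells of both runs. Their median share was 8.33% in run 1 and 6.94% in run 2. For introns it was 3.33% and 1.39%, for intergenic regions 3.33% and 2.78%, and for exons 5% and 4.17%. Of 8786 promoter regions 24.6% passed the 10% threshold, against 3.83% of 5331 intergenic and 3.19% of 4508 intronic regions. Assigning each region to the nearest protein-coding start within 50 kb gave 9893 genes, of which 9087 had a region seen in both runs, 2419 a region at 10% and 131 a region at 25% of both runs. Most genes, 5995, had a single region.

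The 15 single-copy promoter regions with the largest smaller-of-the-runs share had a mean share over the runs of 34.2% to 46.7%. At an equal depth of 721 counts per cell their shares were 16.3% to 28.2%, so the values below hold for cells of the depth given above. Sap130, a subunit of the Sin3 histone deacetylase corepressor, had signal in 26 of 60 cells of run 1 (43.3%) and 36 of 72 of run 2 (50%), or 47% of all 132 cells (exact binomial 95% interval 38.2 to 55.8%). Gsk3b, a kinase that marks many proteins for degradation, had signal in 25 of 60 and 30 of 72 cells, 41.7% of each run, and a mean of 18.3% in thinned cells. Gatad2b, a subunit of the NuRD complex that Ikaros recruits, had signal in 38.3% and 47.2% of the cells. These 3 promoters were high in both runs alike.

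The others had shares between 33.3% and 50% in each run. Pja2, a RING ubiquitin ligase, reached 40% and 38.9%, Fbxo24, an F-box protein gene, 36.7% and 37.5%, and Usp22, the deubiquitinase of the SAGA coactivator, the same 36.7% and 37.5%. Kbtbd3, which encodes a BTB-kelch protein, had 41.7% and 37.5%. Jund, a subunit of the AP-1 factor, had signal in 20 of 60 cells of run 1 (33.3%) and 36 of 72 of run 2 (50%). It was higher in run 2, whereas Pja2 and Kbtbd3 were lower there, and the reason was not tested. Tm2d2 (38.3% and 44.4%), G3bp1, a stress granule protein gene (41.7% and 34.7%), Cables2 (33.3% and 38.9%), Agpat1, an enzyme of phospholipid synthesis (33.3% and 37.5%), Stk11, the kinase LKB1 upstream of AMPK (36.7% and 33.3%), and Zfp367 (35% and 33.3%) were also among the 15.

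The order among the 15 was not resolved. The highest lower bound, 38.2% for Sap130, lay under the lowest upper bound, 42.8% for Zfp367, so all 15 intervals overlapped. Per 100 bp of region the leader was Fbxo24, with 0.537 counts per cell over a region of 96 bp, followed by Sap130 with 0.512 and Gatad2b with 0.423. Gsk3b, whose region was 228 bp wide, had 0.336. Of the 15, 13 had their midpoint upstream of the start. The Gsk3b midpoint was 94 bp upstream and that of Stk11, the farthest of the 15 on that side, 248 bp.

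Outside promoters, 18 single-copy regions passed 25% of both runs, and 9 of these lay within 1 kb of another annotated start of a protein-coding transcript. Of the 10 with the largest shares within 50 kb of a gene start, 5 did so. The mean shares of these 10 over the runs were 29.6% to 53.5%, and 11.4% to 34.6% in cells thinned to 721 counts. The 5 near another start were Sin3a, the scaffold of the Sin3 corepressor (204 bp from a transcript start, 35% and 45.8% of cells), Ppm1b, a phosphatase (225 bp, 31.7% and 54.2%), Add3, a membrane skeleton protein (162 bp, 30% and 33.3%), Gpx4, the lipid peroxide reductase (10 bp, 28.3% and 40.3%), and Arrdc3, an arrestin-like adaptor (55 bp, 26.7% and 33.3%). They are distal to the gene's first start but not to every promoter of the gene. The region nearest to Cct8l1 (13604 bp, 30% and 29.2%) lay 342 bp from the start of a long non-coding RNA.

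The remaining 4 lay over 1 kb from each annotated start of a protein-coding transcript or long non-coding RNA gene. Other kinds of start were not checked. The region with the largest share of any single-copy region, chr19:61266608-61266758, had signal in 30 of 60 and 41 of 72 cells (50% and 56.9%). Its nearest protein-coding start was that of the predicted gene Gm21060, at 30386 bp. An intronic region 31241 bp upstream of Plekha1, a phosphoinositide-binding adaptor, had signal in 20 of 60 and 34 of 72 cells, and an intronic one at -2018 bp from Brox in 22 of 60 and 26 of 72. A region 3150 bp upstream of Igf2bp3, a fetal-type RNA-binding protein of the Lin28b-Let-7 axis, had signal in 33.3% of the cells of each run.

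Igf2bp3 was also among the genes with the most well-detected regions. Of its 4 regions 3 were seen in at least 10% of both runs: the one above, one 527 bp upstream (16.7% and 15.3%) and one 21575 bp upstream (16.7% and 30.6%). The last of these matched 3 places in the genome, so its signal cannot be assigned to Igf2bp3 alone. Arrdc3, Cic, a repressor of growth-factor target genes, Ing1, a reader of histone methylation, and Ctcf, the insulator protein, had 3 such regions each. At Cic the regions on either side of the start had nearly equal shares, 30% and 26.4% for the one at -146 bp and 30% and 23.6% for the one at 349 bp. Ctcf had low but even shares, between 11.1% and 15.3% for its 3 regions in both runs. Tex14 had 4, all 17975 to 43865 bp downstream of its start, with 13.3% to 23.3% of cells in run 1 and 12.5% to 19.4% in run 2. Its regions at 37864 and 43245 bp had 2 copies each in the genome. The other 4 genes with the most regions, Gm21738, Gm47283, Gm21860 and Gm21887, were predicted genes, the last 3 of them on the sex chromosomes. Their regions at 10% of both runs all had more than 1 copy, so that signal cannot be assigned to a single locus.

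The 4 genes named as markers of the 24-hour cells were Foxo1, Kars, Trappc5 and Ube4a. They were named with results of these cells known, so their values are a description. Kars, the lysyl-tRNA synthetase gene, had signal 29 bp upstream of its start in 7 of 60 cells of run 1 (11.7%) and 36 of 72 of run 2 (50%). Trappc5, a subunit of the TRAPP vesicle-tethering complex, had signal at 118 bp in 15 of 60 (25%) and 12 of 72 (16.7%), and Ube4a, a ubiquitin chain elongation factor, at -2 bp in 7 of 60 (11.7%) and 21 of 72 (29.2%). All 3 were in more cells of both 24-hour runs than of either 0-hour run, where Kars was in 6.25% and 0% of cells, Trappc5 in 2.08% and 0%, and Ube4a in 0% and 2.13%. Of all regions 8.59% lay above both 0-hour runs in this way. The shares of Kars and Ube4a differed between the 24-hour runs more than 2-fold.

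Foxo1 had the smallest shares of the 4 promoters. Its region, 27 bp upstream of the start of this forkhead factor that drives Rag expression, had signal in 4 of 60 cells (6.67%) and 6 of 72 (8.33%). Over both runs that was 7.58% of cells (exact 95% interval 3.69 to 13.5%), next to 6.25% and 4.26% in the 0-hour runs. Both 24-hour runs thus lay above both 0-hour runs here too, and the shares of all 4 runs lay inside that interval. A second Ube4a region, 1357 bp upstream, had signal in 0 of 132 cells at 24 hours and in 6.25% and 6.38% of cells at 0 hours.

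Markers were also counted per cell. At least 1 of the 4 had signal in 45% of the cells of run 1 and 68.1% of run 2, at least 2 had in 10% and 30.6%, and all 4 in 0 of 60 and 2 of 72. At 0 hours the share with any marker was 14.6% and 6.38%. Cells with signal at Kars were deeper than those without: their median counts were 2997 against 1778 in run 1 and 2232 against 1334.5 in run 2. The same held for Ube4a, with 2586 against 1779 and 2433 against 1354. For Trappc5 the medians were 1821 against 1858 in run 1 and 2341.5 against 1435.5 in run 2, and for Foxo1 1944.5 against 1839.5 and 2838 against 1485.5. At an equal depth of 721 counts the mean share over the 24-hour runs was 16.4% for Kars, 12.8% for Trappc5, 12.4% for Ube4a and 4.71% for Foxo1, in place of 30.8%, 20.8%, 20.4% and 7.5%.

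The short sequence of the Foxo1 and Kars promoters is shown for the Ikaros core, GGGAA or its reverse complement TTCCC, in capitals. The stretches outside untranslated sequence were chr3:52268236-52268335 for Foxo1 and chr8:112011324-112011397 for Kars, and that of Ube4a, chr9:44965601-44965681, held no core.
Foxo1: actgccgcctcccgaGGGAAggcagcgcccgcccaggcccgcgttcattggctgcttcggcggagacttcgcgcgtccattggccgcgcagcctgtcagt
Kars: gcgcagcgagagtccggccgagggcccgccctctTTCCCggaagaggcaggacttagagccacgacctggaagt
Ube4a: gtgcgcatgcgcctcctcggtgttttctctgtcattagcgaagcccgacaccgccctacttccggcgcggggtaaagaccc

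B lineage transcription factor genes had regions in the cells of both runs. Of 28 such genes 25 had a region, all 25 seen in both runs, and 8 (32%) had one in at least 10% of cells of both. Among all 9893 genes the share at 10% was 24.5%. The median over the list of the best region's smaller share was 6.67%, and over all genes 5.56%. The list had 96 regions for its 25 genes, and over those the median smaller share was 1.67%, against 2.78% over all regions. Pax5, the factor that commits cells to the B lineage, led with signal in 14 of 60 and 20 of 72 cells (23.3% and 27.8%) at a region 5914 bp inside the gene and 567 bp from an alternative start. Pax5 had 9 regions, 8 of them seen in both runs. Ebf1, which acts with Pax5, had signal 104 bp upstream of its start in 16.7% and 22.2% of cells.

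Ets1 came second in the list, through a region 23108 bp upstream of its start, with 23.3% and 16.7%. Id2, an inhibitor of E proteins, had 15% and 15.3%, and Tcf3, which encodes the E2A proteins, 13.3% and 22.2%. Runx1 (11.7% and 19.4%), Tcf4 (15% and 11.1%) and Myb, at a region 25893 bp upstream (10% and 12.5%), completed the 8. At the other end stood Ikzf1, the Ikaros gene itself. It had 7 regions, but the one with the largest smaller share had signal in 1.67% and 2.78% of cells, both under the limits of 5% and 4.17% that a count of 0 allows in runs of this size. A further Ikzf1 region had 5% and 1.39%. Irf4 had 3.33% and 2.78%. Bach2 had 1.67% and 5.56% at the region ranked first, and 11.7% and 1.39% at its promoter, 185 bp upstream.

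Genes of the pre-B cell receptor and its signalling seldom passed 10%, although their median best share, 5.28%, was near the 5.56% of all genes. Of 24 genes 22 had a region, and 1 of the 22 (4.55%), Bcl10, reached 10% in both runs. Bcl10, an adaptor that links the receptor to NF-kB, had 20% and 16.7%. Blnk, the adaptor that restrains pre-B cell proliferation, was uneven, at 23.3% and 8.33%. Syk, the receptor's kinase, had 8.33% and 9.72% at a region 10541 bp upstream. Among the receptor chains, Cd79a and Vpreb1, a signalling and a surrogate light chain, each had 6.67% and 6.94%, the Vpreb1 region lying 3 bp from a transcript start of Top3b, and Cd79b 15% and 6.94%. Igll1, which encodes the other surrogate light chain protein, had 1.67% and 6.94% at its best region, 1432 bp upstream. Plcg2 had the most regions of any gene, 15, of which 10 were seen in both runs, and the best had 5% and 5.56%.

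**Figure D2:**
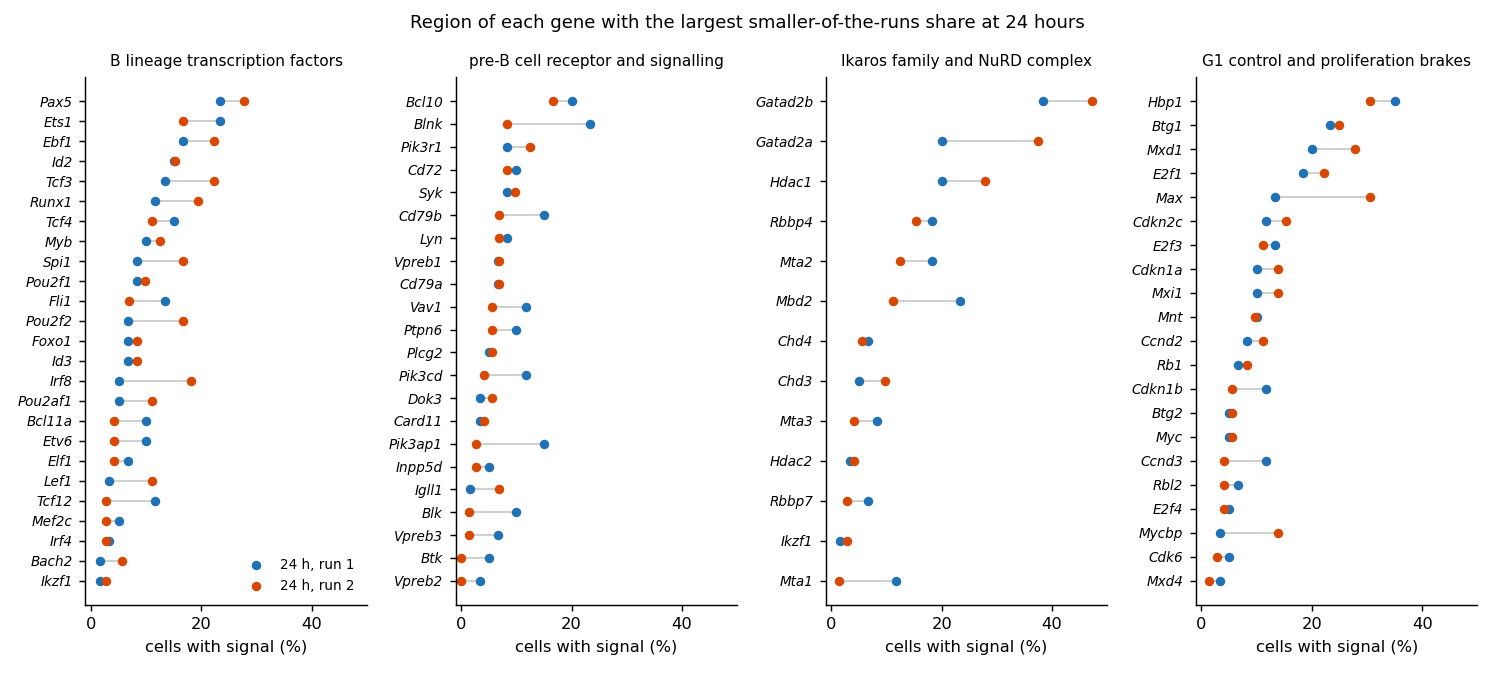
Each row is a gene and each point the percentage of cells of 24-hour run 1 (blue, n = 60) or run 2 (orange, n = 72) with signal in the gene's region with the largest smaller-of-the-runs share, for 4 lists of genes. Gatad2b leads its list in both runs, Hbp1 and Pax5 lead theirs in one run and tie with Max and Ets1 in the other, and in the pre-B cell receptor list only Bcl10 lies above 10% in both.

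Of 22 B lineage surface protein genes 17 had a region and none passed 10% in both runs. Ptprc, the CD45 phosphatase, had 18.3% and 5.56%, and Il7r, the receptor for interleukin-7, 1.67% and 1.39%. In the V(D)J recombination list 9 of 14 genes had a region, with a median best share of 9.72%, against 5.56% over all genes. Of the 9 genes, 4 (44.4%) passed, next to 24.5% of all genes. These were Xrcc4 (23.3% and 27.8%), Lig4 (13.3% and 15.3%) and Dclre1c, the Artemis nuclease gene (11.7% and 26.4%), all of the end-joining step, and Hmgb2, a DNA-bending cofactor of the recombinase (35% and 22.2%). Rag2, a subunit of the recombinase, had 8.33% and 9.72% at a region at -8645 bp. For antigen presentation 13 of 20 genes were measured, with a median best share of 4.17%. The 4 (30.8%) that passed were H2-D1 (25% and 31.9%), H2-DMb2 (21.7% and 22.2%), B2m (20% and 13.9%) and H2-K1 (15% and 13.9%). They include the class I heavy and light chains. The H2-DMb2 region lay 149 bp from a transcript start of H2-DMa.

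Genes of cell cycle arrest and of replication were both measured. Of 24 genes of G1 control 21 had a region and 9 (42.9%) passed 10% in both runs, with a median best share of 8.33%, against 5.56% over all genes. Among all genes 24.5% passed. Hbp1, a repressor of G1 progression, led with 35% and 30.6%. Btg1, an antiproliferative gene, had 23.3% and 25%, Mxd1, an antagonist of Myc, 20% and 27.8%, and E2f1, an activator of S-phase genes, 18.3% and 22.2%. Cdkn1a, the p21 inhibitor, had 10% and 13.9%, and Myc itself 5% and 5.56%. Of 33 DNA replication genes 26 had a region and 9 (34.6%) passed, with a median best share of 5.28%, among them the GINS helicase subunits Gins2 (28.3% and 43.1%) and Gins4 (15% and 19.4%), the origin licensing factor Cdc6 (18.3% and 23.6%), and the polymerase subunit Pold1 (16.7% and 13.9%).

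Regions of the Foxo and PI3K pathway were measured for all 24 of its genes, and 9 (37.5%) passed. Among all genes 24.5% passed. The list's median best share was 6.81%, against 5.56% over all genes. Over its 59 regions the median smaller share was 1.67%, against 2.78% over all regions. Mtor had 21.7% and 25%, Pik3ip1, an inhibitor of PI3K, 16.7% and 34.7%, the glucose transporter Slc2a1 16.7% and 20.8%, and Klf2, a Foxo1 target of quiescent lymphocytes, 15% and 31.9%. In the list of the Ikaros family and NuRD, 13 of 18 genes had a region and 6 (46.2%) passed. This list's median best share was 5.56%, the same as over all genes. Over its 31 regions the median smaller share was 1.39%, against 2.78% over all regions. After Gatad2b came its relative Gatad2a (20% and 37.5%), the deacetylase Hdac1 (20% and 27.8%) and the histone-binding subunit Rbbp4 (18.3% and 15.3%). The remodelling ATPase Chd4 had 6.67% and 5.56%. All 20 aminoacyl-tRNA synthetase genes had a region, and 6 (30%) passed, led by Hars (16.7% and 16.7%), Qars (21.7% and 15.3%), Tars (15% and 18.1%) and Iars (18.3% and 12.5%). Of 9 genes that the study had named, a list not independent of these cells, 3 passed: Hbp1, Pax5 and Mier1 (10% and 18.1%). Elf2 followed with 8.33% and 18.1%. The study had named Mier1 for its RNA in 24-hour cells.

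Markers of other lineages mostly lacked a region. Of 17 T lineage genes 7 had a region and 0 passed 10% in both runs, with a median best share of 1.67%. Cd3e, Cd4 and Cd8a had no region in the table, and the widest of the rest, Cd28, had 8.33% and 4.17%. Of 16 myeloid genes 4 had a region, the best of which, at Cebpe, had 3.33% and 5.56%. Of 14 erythroid and megakaryocyte genes 3 had one, with a median best share of 8.33%, led by Tfrc, the transferrin receptor of dividing cells (15% and 25%), and no region lay at the globin genes or Gata1. Of 5 plasma cell genes 2 had one, Xbp1 (18.3% and 29.2%) and Prdm1 (6.67% and 19.4%), with a median best share of 12.5%. The 10 stromal and epithelial genes had 0. The regions had been called on bulk samples, and each region in the table had signal in at least 5 of the 227 cells. For a gene without a region, no region called in bulk and signal in fewer cells than that cannot be told apart.

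The clearest feature of the widely detected promoters that the ranking did not use was the CCAAT box. In a window of 151 bp centred on each single-copy region, CCAAT or ATTGG occurred in 23.6% of the 6392 promoter regions under 10% in a run, in 50.7% of the 2022 between 10% and 25%, and in 76.2% of the 105 at 25% or more (exact 95% interval 66.9 to 84.0%). All 15 named promoter regions held a box. Over the regions farther than 1 kb from a start the same order was seen, with 14.7% of 10379, 40.9% of 396 and 72.2% of 18, and among the 10 named distal regions 7 held a box. Over all regions the share was 22.5%.

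Position varied along with detection, and the order held within bands of position, GC content and width. The median midpoint was 5 bp upstream of the start in the lowest class, 47 bp in the middle and 86 bp in the highest. With the midpoint within 250 bp upstream the shares with a box were 31.5%, 57.6% and 78.2%, and within 250 bp downstream 15.8%, 30.0% and 61.5%, the last over 13 regions. At a GC content of 55 to 65% they were 29.4%, 57% and 82%, and at a width of 140 to 160 bp 26.9%, 51.6% and 74.5%. The GC box, GGGCGG or its reverse complement, which Sp1 binds, rose less across the classes, from 53.1% to 64.6% and 70.5%.

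**Figure D3:**
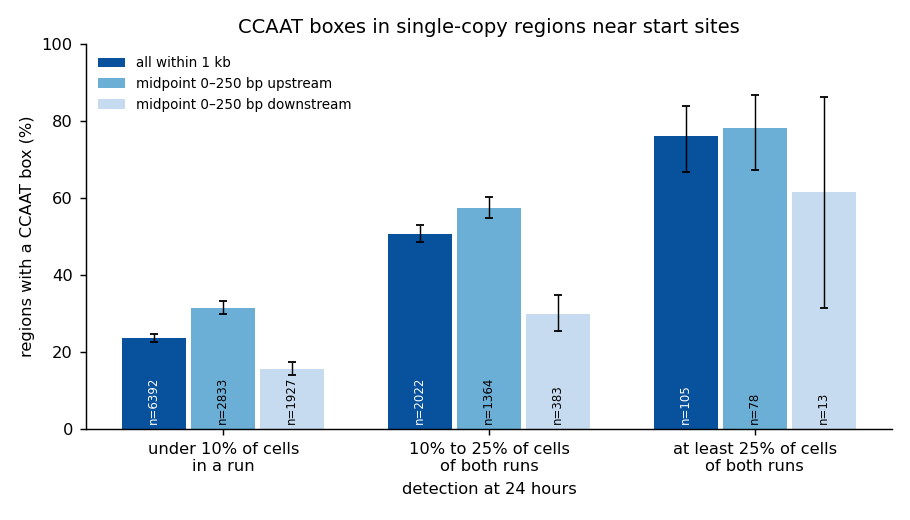
Bars give the percentage of single-copy regions within 1 kb of a gene start that hold CCAAT or ATTGG in their central 151 bp, by the share of 24-hour cells with signal, and error bars are exact binomial 95% intervals over regions. In each of the 3 sets the bars rise from left to right, from 23.6% to 76.2% for all regions.

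In promoter windows the Ikaros core showed the opposite order. GGGAA or TTCCC occurred in 39.1% of promoter windows under 10%, in 36% of those between 10% and 25% and in 25.7% of those at 25% or more. Farther than 1 kb from a start the shares were 40.9%, 35.6% and 38.9%, without that order. Promoter regions with the core had median shares of 6.67% and 6.94% in runs 1 and 2, against 8.33% and 8.33% for those without it. Of the counts of the 24-hour cells, 36.3% and 36.4% fell in regions with the core in their window, against 39% in each 0-hour run (exact permutation p = 0.33, the smallest that 2 runs against 2 can give). Of all regions 39.4% held the core. The ETS core CCGGAAG was in 16.6%, 16.2% and 7.62% of the 3 promoter classes. The remaining motifs searched, among them the EBF1, RUNX and FOXO sites, were in at most 12.4% of the promoters at 25% or more.

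The order by sequence was not peculiar to the induced cells. Promoter regions with both a CCAAT and a GC box had median shares of 11.7% and 12.5% at 24 hours and of 16.7% and 8.51% at 0 hours. Those with neither had 5% and 5.56% at 24 hours and 8.33% and 4.26% at 0 hours. Regions with both boxes thus had about 2 times the share of those with neither in each of the 4 runs.

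Cells of one run differed from each other in how much of their signal lay at promoters. In run 1 the share of a cell's detected regions that lay within 1 kb of a start ran from 50.4% to 78.1%, with a median of 59.5% and an SD of 6.23 percentage points over 60 cells. In run 2 it ran from 53.9% to 76.5%, with a median of 69.5% and an SD of 5.87 over 72 cells. The share fell with depth in both runs (Pearson's r with log counts -0.620 and -0.374, Spearman's rho -0.642 and -0.393, over the cells of a run, which share a chip). In the third of run 1 cells with the fewest counts the median was 66.3%, in the third in the middle 57.2% and in the deepest 56.9%. In run 2 the medians were 71.3%, 69.3% and 64.7%. In the 0-hour runs r was -0.115 and -0.182, and rho 0.0203 and 0.186. After each cell was thinned to 721 counts, which kept 118 cells, the medians of the runs were 58.6% and 69.1%.

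**Figure D4:**
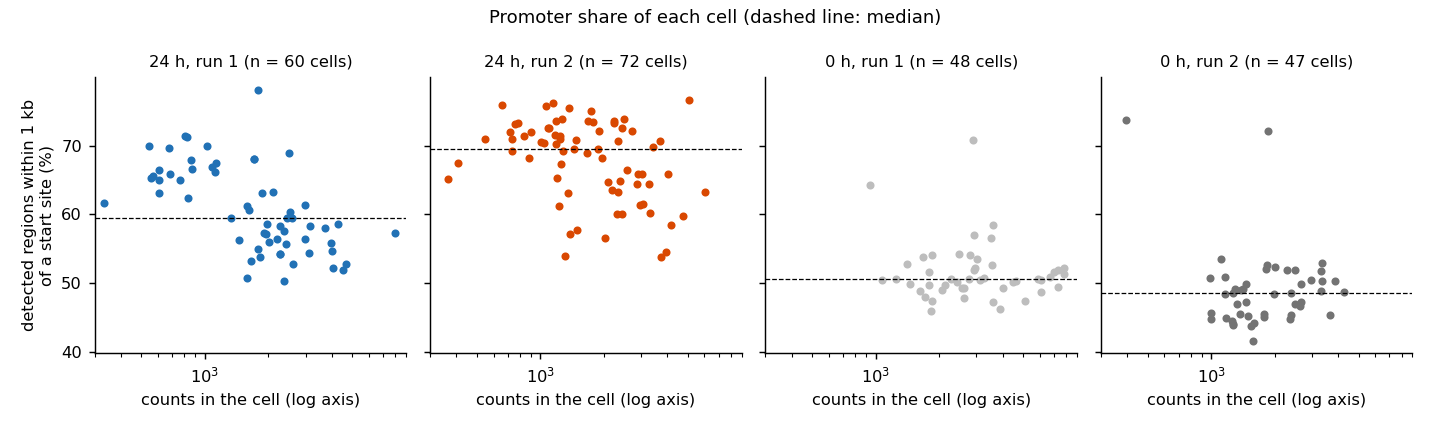
Each point is a cell, with its total counts on a log x axis and the percentage of its detected regions within 1 kb of a gene start on the y axis, for both 24-hour and both 0-hour runs; dashed lines are medians. Most 24-hour cells lie above the 0-hour medians of 50.6% and 48.5%, and in both 24-hour runs the median is highest in the third of cells with the fewest counts, although the highest single cells had 1778 and 5081 counts.

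To see whether gene groups varied together, the between-cell variance of each group's number of detected regions was divided by the variance expected from each region's share and each cell's number of regions alone. For the 15 gene lists with at least 5 regions the median ratio was 1.03 in run 1 and 1.05 in run 2, with ranges of 0.621 to 1.35 and 0.835 to 1.19. The B lineage transcription factors had 1.32 and 1.19, and the G1 control genes 0.621 and 0.959. In thinned cells these ratios were 0.892 and 1.27, and 1.10 and 0.806, so neither list kept its side of 1 in both runs. The ratio grows with the number of regions summed when they vary together, so lists of 5 to 96 regions cannot be compared with larger classes. The 8786 promoter regions had ratios of 7.81 and 13, introns 7.38 and 15.8, and intergenic regions 5.36 and 14.5, while exons had 0.998 and 0.908.

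Whole chromosomes also varied. The ratio had a median of 3.91 over the 19 autosomes and X in run 1, from 2.27 for chromosome 18 to 7.72 for chromosome 7, and all 20 were above 1.5. In run 2 the median was 1.70, from 1.07 for chromosome 4 to 3.26 for chromosome 1, and 14 of 20 were above 1.5. At 0 hours the medians were 5.12 and 5.87. Thinning lowered the 24-hour medians to 1.58 and 1.21, and promoter regions alone gave 2.10 and 1.30. Each chromosome was then cut at the median position of its regions. The depth-adjusted signal of the 2 segments so made correlated over cells with a median r of 0.415 in run 1 (above 0 for 20 of 20 chromosomes) and 0.143 in run 2 (18 of 20). Segments of different chromosomes had medians of -0.046 and -0.035.

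**Figure D5:**
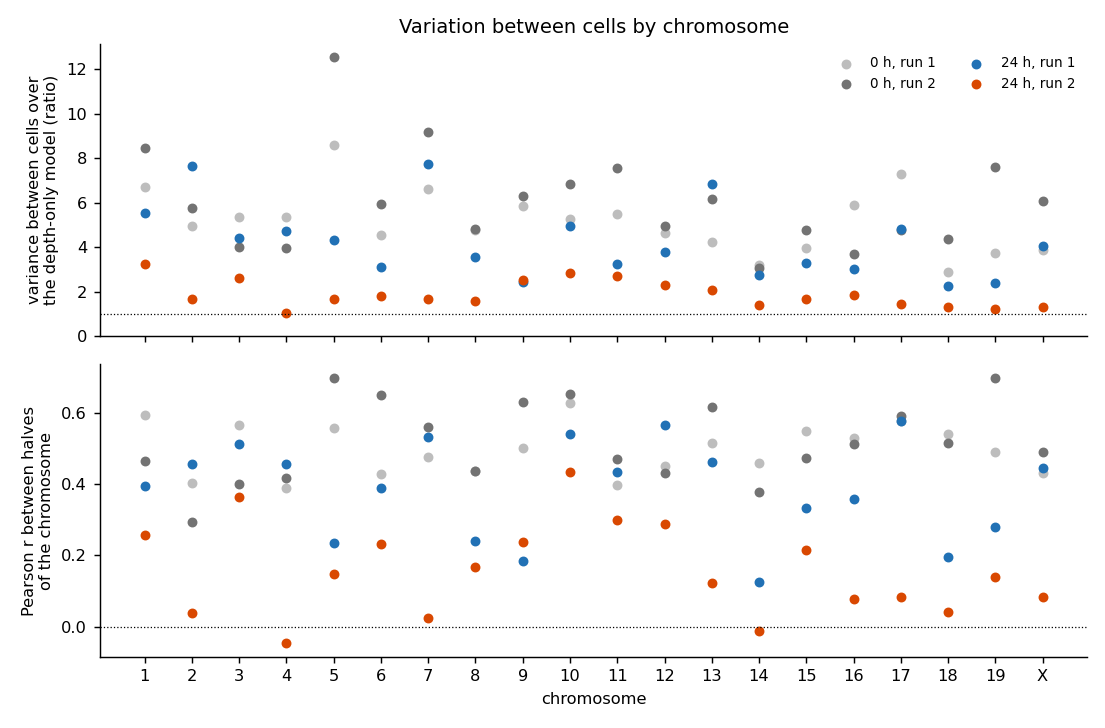
The upper panel gives, for each chromosome, the variance between cells of the number of detected regions over that of the depth-only model (ratio, dotted line at 1), and the lower panel the Pearson correlation over cells between the 2 parts of the chromosome cut at the median position of its regions (dotted line at 0), for the 4 runs. Run 2 at 24 hours lies lowest for most chromosomes, and run 1 lies nearer to the 0-hour runs.

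Neighbouring regions were detected together. For pairs of regions seen in at least 10% of cells of both runs, the mean depth-adjusted correlation over cells was 0.342 in run 1 and 0.368 in run 2 for the 14 pairs under 300 bp apart. For the 60 pairs between 300 and 1000 bp it was 0.124 and 0.0930, and for the 45 and 44 pairs from there to 5000 bp 0.0766 and 0.110. Beyond that it was near 0, with 0.0115 and 0.0197 up to 20000 bp. Over all pairs within 5000 bp the mean was 0.132 in each run, 0.0389 in thinned cells, and 0.0932 without the pairs under 1000 bp. The leading axis of variation between cells took 2.33% of the variance in run 1 and 2.74% in run 2, and the loadings of its 2640 regions correlated between the runs with r = 0.0377, or 0.169 over regions seen in at least 20% of cells of both. The highest absolute correlation among the first 5 axes of each run was 0.0664.

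Set beside the 0-hour cells, few regions passed a test. With counts summed per run, the quasi-likelihood test of edgeR, adjusted by Benjamini-Hochberg over 20103 regions, called 8 higher (0.0398%) and 3 lower (0.0149%) at 24 hours at an adjusted p under 0.05, with 2435 at an unadjusted p under 0.05. DESeq2 called 0 of either, with 1085 at an unadjusted p under 0.05. The balance turned with the scaling and the filter: 0 higher and 3 lower were called with an offset for each run's number of cells, 21 and 12 with run totals, and 8 and 10 among regions in at least 10% of cells. With a run left out, 1 time-point has a single run, which is assumed to vary like the runs of the other. Leaving out run 1 of the 24-hour cells gave 456 higher and 341 lower, and leaving out their run 2 gave 9 and 1. Dropping run 1 of the 0-hour cells gave 6 and 0, and dropping run 2 of those gave 1 and 0. The share of counts within 1 kb of a start was 62.3% on average at 24 hours and 49.8% at 0 hours, higher in both 24-hour runs than in either 0-hour run (exact permutation p = 0.33, the smallest that the design allows).

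Regions of the pre-B cell receptor list often lay lower in both 24-hour runs, but none was called. Of its 85 regions 48 (56.5%) had a smaller share of cells in both 24-hour runs than in either 0-hour run and 1 (1.18%) a larger one, whereas of all 20103 regions 33.7% and 8.59% did. The lists were not matched to all regions by place. Introns took 20.5% of counts on average at 0 hours and 13.7% at 24 hours, and intergenic regions 22.6% and 17.2%. How far place accounts for the list's values was not tested. edgeR called 0 of the 85 in either direction, with 12 at an unadjusted p under 0.05, and DESeq2 called 0. The shares below were 64.3% of 14 regions for the T lineage list, 57.1% of 7 for the myeloid list, 37.5% of 16 for V(D)J recombination and 29.8% of 47 for B lineage surface proteins. Cd79a had 6.67% and 6.94% at 24 hours and 25% and 10.6% at 0 hours. Igll1 had 1.67% and 6.94% against 25% and 10.6%, and Plcg2 5% and 5.56% against 25% and 12.8%. Shares of cells, and the counts of regions below or above, were not adjusted for depth. Median counts per cell were 2898 and 1787 in the 0-hour runs, against 1839.5 and 1676 at 24 hours. The edgeR log2 change, scaled for depth, was -0.695 for Cd79a (adjusted p = 0.755). For the Igll1 region above it was -1.41 (adjusted p = 0.473), and for the one 175 bp upstream -2.42 (adjusted p = 0.259). Among the 28 B lineage transcription factor genes 31 of 96 regions (32.3%) lay below in both runs, near the 33.7% of all regions, and 9 (9.38%) above. Of the 2646 regions seen in at least 10% of cells of both 24-hour runs, a set chosen on its 24-hour shares, 623 (23.5%) lay above both 0-hour runs and 321 (12.1%) below.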

How the data were processed

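Single-cell ATAC-seq had been run on mouse B3 cells at 0 and 24 hours. The authors deposited 1 table of counts, in which each of 227 single-cell columns holds 0, 1 or 2 per region. The sources used here do not say how values were limited to 2. The submitters' processing notes name Bowtie, Picard, HOMER and mm10, and the regions had been called on bulk samples, which were not analysed here. Each region in the table had signal in at least 5 cells. Capture sites had been inspected by eye for single cells, and no doublet caller was run. All 227 columns were used (0 left out).

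A region was detected in a cell at a count of at least 1. Coordinates were read as 1-based mm10 positions. Each region was given the nearest protein-coding gene start within 50 kb, and copies were searched in the genome with BLAST 2.17.0 (90% identity, 80% of the length). Regions of up to 26 bp (153 of them) could not be searched. Motifs (13, both strands) were counted as exact letters in the central 151 bp. The overlap of the GC box with other motifs was not removed.

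Counts were summed per run and tested with edgeR 4.0.16 (quasi-likelihood, TMM) and, as an alternative, DESeq2 1.42.0, in R 4.3.3, with an adjusted p under 0.05 as the threshold. Shares carry exact binomial 95% intervals, and run means an exact two-sided permutation test. Tests and cell measures were first tested on simulated data. Thinned cells held 721 counts each, with 9 cells of run 1 and 5 of run 2 left out as shallower. Genes named were the 4 markers, the 15 promoter and 10 distal single-copy regions with the largest smaller-of-the-runs share, the 10 genes with most regions at 10% of both runs, and the top 4 of each of 17 lists or any measured B lineage gene; Chd4, Cdkn1a, Myc, Rag2 and the non-B marker genes without a region were named after their values were seen. Some genes that these rules name are not reported here. The members and lists were chosen with earlier results of these data known. Python 3.11.15 with NumPy 2.4.6, pandas 2.3.3 and SciPy 1.17.1 was used.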

Additional observations from a re-analysis of the deposited data

How the results depend on the processing

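At a threshold of 25% of both 24-hour runs the 149 regions fell to 16 in thinned cells and 28 with a value of 2 as detected, and ranged from 316 to 652 when a run was left out. The edgeR counts at 24 hours were 8 higher and 3 lower. They were 21 and 12 with run totals for scaling, 0 and 3 with the offset set to each run's number of cells, 0 and 0 with DESeq2, and 8 and 10 among regions in at least 10% of cells. Leaving out a run gave 1 to 456 higher and 0 to 341 lower. Run numbers were shared between the time-points, but the correlation of same-numbered runs' deviations was -0.0556 over 10050 regions, so they share a number only. The replicate block gave 9 and 2. The correlation of loadings between the runs was 0.169 over regions in at least 20% of cells. Co-detection within 5000 bp, 0.132, was 0.0932 without the closest pairs, 0.0389 in thinned cells and 0.106 over single-copy regions. The median list variance ratio was 1.04, and 0.955 in thinned cells. The SD of the promoter share, 6.05, was 6.4 in thinned cells. The promoter share of counts stayed between 57.6% and 70.6% under other distances, start sites, copies and depth, and between 58.3% and 66.4% without a run, above the 0-hour value throughout. The results on chromosomes and on the spread of the promoter share, with their alternatives, were chosen after seeing the data. So were the alternatives on any transcript start and on thinned counts for the promoter share.

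Depth limited all of these shares: a count of 0 allows a share of up to 5% in run 1 and 4.17% in run 2. Of 30 named shares 27 moved by more than their spread in thinned cells, all of these downward, and 25 with a value of 2 as detected. The list variance ratio went from above 1 to below it in thinned cells, and the balance of calls from more higher to more lower with the cell-number offset and among regions in at least 10% of cells.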

Other observations

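Promoters of ribosomal protein genes, which are expressed at high levels in dividing cells, were detected about as widely as promoters in general. Their 62 promoter regions, of 56 genes, had median shares of 8.33% in 24-hour run 1 and 9.03% in run 2, against 8.33% and 6.94% over all promoter regions. Of the 62, 15 (24.2%) were seen in at least 10% of cells of both runs, near the 24.6% of all promoter regions, and 0 reached 25% in both, where 1.27% of all promoter regions did. Rps3a1, among the more widely detected of them, had signal in 11 of 60 and 14 of 72 cells (18.3% and 19.4%). These genes were chosen after other values of the data had been seen.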
